A study of Mus musculus with 61 samples.

Results

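Histone H3 lysine 27 acetylation (H3K27ac) was measured by chromatin immunoprecipitation and sequencing (ChIP–seq) in PU.1-positive nuclei sorted from mouse brain. Nuclei of Sall1 enhancer knockout mice (EKO) were set against nuclei of wild-type mice (WT). There were 2 EKO libraries and 2 WT libraries, all from the C57/Bl6 strain, and per the study's methods from male mice of 8 to 12 weeks. EKO mice were homozygous for a CRISPR–Cas9 deletion of the distal enhancer upstream of Sall1 and had been crossed back to C57BL/6J, and the deletion is carried by every cell of the animal. The WT mice are labelled wild type, with no allele named. The members were all H3K27ac regions that the authors called in these libraries, 99225 regions of the 528238 called over the 12 nuclei libraries of the series, of which NeuN-sorted nuclei had 272588 and Olig2-sorted nuclei 156425. A region was counted for a genotype where both of its libraries called it with an overlap of at least 1 bp.

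PU.1, encoded by Spi1, is an ETS-family factor that macrophages and microglia need for their development, and antibodies to it allow their nuclei to be sorted without dissociating living tissue. H3K27ac is deposited by p300 and CBP at active promoters and enhancers, and long stretches of it mark the super-enhancers of genes that define a cell type. SALL1 is a zinc-finger factor that, among brain macrophages, is characteristic of microglia, and SMAD4 is the shared partner of the SMADs that act downstream of TGFβ.

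The sequences below show the DNA at the centre of the differences, as 200 bases of the plus strand (mm10) around the centre of a deposited p300 or SMAD4 peak inside the region. They came from regions among the 12 of highest tag number in each class, together with 1 from the domain over Apoe. The Adam19 site (chr11:46120290-46120489, in an intron of Adam19, with Nipal4 as the nearest protein-coding start), the Mnat1 site (chr12:73201777-73201976, intronic), the Nup205 site (chr6:35168394-35168593, intergenic) and the Npvf site (chr6:50859205-50859404, intergenic) lie in regions that only EKO libraries held. The Sall1 upstream site (chr8:89392813-89393012, intergenic), the Copz2 site (chr11:96880381-96880580, intergenic) and the Plcg1 site (chr2:160742805-160743004, intronic) lie in regions that only WT libraries held. The Apoc4 site (chr7:19683889-19684088, intergenic) lies in the Apoe domain. EKO mice lack part of the super-enhancer upstream of Sall1, and the coordinates of the deletion were not used here, so missing DNA and lost acetylation cannot be told apart at the Sall1 upstream site. Capitals mark matches on either strand to the PU.1 core GAGGAA, the AP-1 motif TGANTCA, the C/EBP motif TTGCNNAA, the MiT/TFE E-box CACGTG and the SMAD box CAGAC.
Adam19 site, EKO only: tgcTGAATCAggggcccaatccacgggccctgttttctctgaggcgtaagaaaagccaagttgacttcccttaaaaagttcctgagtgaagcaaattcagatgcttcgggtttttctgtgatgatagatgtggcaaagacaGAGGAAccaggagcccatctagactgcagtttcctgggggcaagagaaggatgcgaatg
Mnat1 site, EKO only: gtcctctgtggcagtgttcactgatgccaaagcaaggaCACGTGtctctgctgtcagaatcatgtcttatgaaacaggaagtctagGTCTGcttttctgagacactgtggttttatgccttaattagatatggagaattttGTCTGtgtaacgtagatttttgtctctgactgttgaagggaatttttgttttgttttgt
Nup205 site, EKO only: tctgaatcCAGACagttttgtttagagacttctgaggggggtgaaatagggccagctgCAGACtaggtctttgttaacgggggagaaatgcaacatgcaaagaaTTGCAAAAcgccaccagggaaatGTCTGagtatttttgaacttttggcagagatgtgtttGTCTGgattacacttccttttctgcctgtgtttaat
Npvf site, EKO only: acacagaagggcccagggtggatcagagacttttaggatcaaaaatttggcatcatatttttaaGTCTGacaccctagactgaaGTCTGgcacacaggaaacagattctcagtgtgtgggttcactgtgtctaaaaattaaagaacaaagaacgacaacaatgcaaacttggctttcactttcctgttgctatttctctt
Apoc4 site, Apoe domain: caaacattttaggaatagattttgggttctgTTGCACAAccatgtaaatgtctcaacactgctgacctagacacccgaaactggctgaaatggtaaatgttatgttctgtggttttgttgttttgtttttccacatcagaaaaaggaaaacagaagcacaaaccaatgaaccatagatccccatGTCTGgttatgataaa
Sall1 upstream site, WT only: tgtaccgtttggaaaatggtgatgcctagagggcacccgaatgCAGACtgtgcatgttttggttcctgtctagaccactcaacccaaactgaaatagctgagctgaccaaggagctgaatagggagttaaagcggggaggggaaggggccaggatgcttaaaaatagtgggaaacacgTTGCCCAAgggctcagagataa
Copz2 site, WT only: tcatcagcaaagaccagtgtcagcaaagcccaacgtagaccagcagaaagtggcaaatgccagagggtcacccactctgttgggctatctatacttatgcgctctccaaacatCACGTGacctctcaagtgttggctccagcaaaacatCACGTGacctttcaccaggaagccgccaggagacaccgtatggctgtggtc
Plcg1 site, WT only: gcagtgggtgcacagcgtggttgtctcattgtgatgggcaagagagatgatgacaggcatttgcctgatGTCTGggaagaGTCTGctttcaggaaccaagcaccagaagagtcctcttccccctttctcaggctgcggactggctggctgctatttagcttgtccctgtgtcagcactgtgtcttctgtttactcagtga
The Mnat1, Nup205, Npvf and Apoc4 windows were centred on SMAD4 peaks, which were sought first in EKO-only regions and the Apoe domain. The other windows were centred on p300 peaks. SMAD box matches were found in 6 of these 8 windows, a count that this choice favours. A further window chosen by the same rule, near the Sall1 start, held no match to any motif and is not shown. Of distal windows, 42.2% in EKO-only regions, 52.6% in WT-only regions and 45.9% in any PU1 region held a SMAD box. The share was 41.6% over all 132879 windows of the study's microglia table. At the Mnat1 site, H3K27ac of separately isolated microglia gave 950.0 and 290.0 normalized tags in EKO and 36.1 and 13.9 in WT. At the Sall1 upstream site the same table gave 1.0 and 3.73 tags in EKO and 358.0 and 196.0 in WT.

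The 4 PU1 libraries differed in enrichment. The EKO libraries held 25990 and 26029 regions and the WT libraries 11149 and 36057. WT replicate 1 was the deepest, at about 19700000 tags against 8200000 to 12000000 in the other libraries, but 8.04% of its tags fell in called regions, against 37.8% to 53.5%, and 6.88% of its region tags came from a single region on chromosome 2. Depth was recovered from the values, which were whole multiples of 1 tag in each library (100.0% within 0.1 of a tag). Over regions called in all 4 libraries, log2 density correlated at 0.914 between the EKO libraries and at 0.749 between the WT libraries, against 0.622 to 0.672 across genotypes. WT replicate 1 stands apart. The counts and contents of the classes and the counts of called regions and genes are therefore also given with WT replicate 2 alone. A fit with WT replicate 2 alone holds 1 WT library, so its p-values rest on the spread between the EKO libraries. Such a fit has no measure of spread in WT, and its calls are not a second test. No source says that replicates came from separate animals, so p-values measure the spread between these libraries, which may be technical.

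Marker genes of the sorted population were acetylated in all 4 libraries. Spi1, the sorted factor, had 4387.2 and 3321.6 normalized tags in called regions reaching within 10 kb of its start site in EKO, against 843.5 and 4987.1 in WT. Csf1r, the receptor that microglia depend on for survival, had 3848.6 and 3269.2 tags in EKO and 789.1 and 4881.3 in WT, and Cx3cr1, the fractalkine receptor, 15640.2 and 11655.5 in EKO and 745.9 and 17976.2 in WT. None of the 3 passed the test, and the genotypes overlapped in each. Of 13 neuron markers 11 had no called region in any of the libraries, among them Rbfox3 and Snap25, as did 9 of 13 oligodendrocyte lineage markers, including Olig2 and Sox10, and 8 of 11 astrocyte markers, including Gfap and Aqp4. Monocyte and neutrophil markers such as Ly6c2, S100a8 and Ly6g were also without a region (8 of 13). Oligodendrocyte lineage markers held 0.0155% and 0.0154% of all gene tags in EKO and 0.0147% and 0.025% in WT. Astrocyte markers held 0.00321% and 0.00294% in EKO and 0.0% and 0.00471% in WT. The tags near monocyte and neutrophil markers were 0.0351% and 0.0487% of all gene tags in EKO and 0.0% and 0.012% in WT, and those near lymphocyte markers 0.0953% and 0.0991% in EKO and 0.0387% and 0.0447% in WT. In these lists Itga4, an integrin subunit (1094.9 and 922.7 tags in EKO, 0.0 and 24.2 in WT), and Ms4a1, which lies in the Ms4a cluster (1856.2 and 1266.5 in EKO, 0.0 and 30.8 in WT), were called higher by limma, as were 1.3% of all genes tested. The part of such cells in other results was not tested.

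Of the regions that both EKO libraries called, 86.1% were overlapped by at least 1 WT library. There were 19671 such EKO regions, of which 8445 were overlapped by both WT libraries, 8492 by one of them and 2734 (13.9%) by neither. Both WT libraries called 8960 regions, of which 8406 were overlapped by both EKO libraries, 276 by one of them and 278 (3.1%) by neither. The replicates of a genotype shared 64.8% of their merged regions in EKO and 24.5% in WT, where 27086 regions were called in replicate 2 alone, so disagreement between replicates exceeded the genotype-specific classes. With WT replicate 2 alone, EKO-only regions numbered 2794 (14.2% of the EKO regions) and WT-only regions 14415 (40.0% of the regions of that library), which turned the order of the classes round, while the 10000 regions of highest tag number per library gave 1582 EKO-only and 940 WT-only regions. The number of EKO-only regions was thus almost the same without WT replicate 1, and the number of WT-only regions was set by it.

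**Figure D1:**
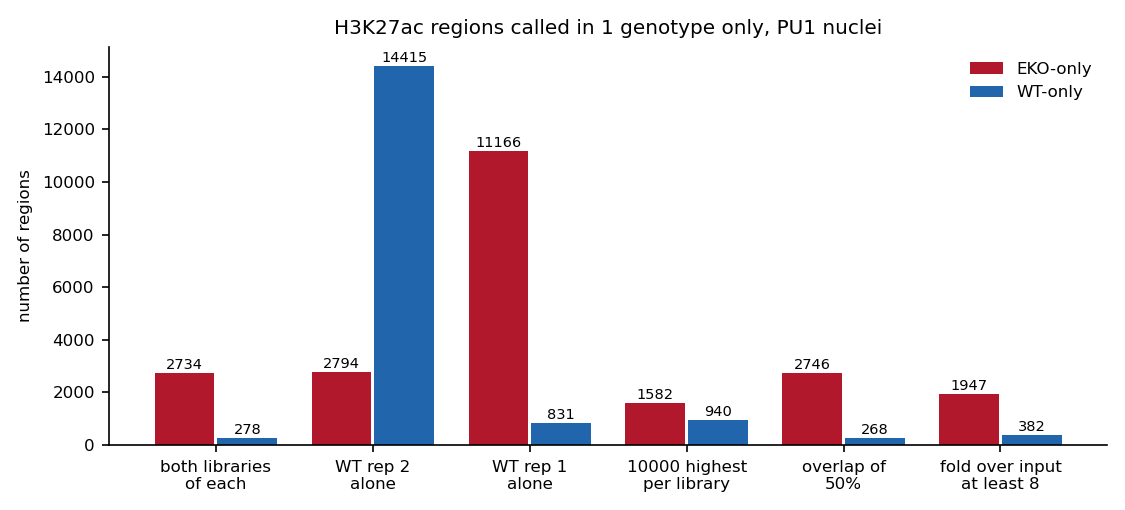
Number of H3K27ac regions of PU1 nuclei called in both EKO libraries and neither WT library (EKO-only, red) or the reverse (WT-only, blue), for 6 ways of forming the classes on the x axis. EKO-only regions outnumber WT-only regions in every way shown except with WT replicate 2 alone, where 2794 stand against 14415.

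The strongest EKO-only regions lay at genes of varied function rather than at a single locus. The highest lay in an intron of Adam19, which encodes a membrane metalloprotease (chr11:46116597-46129088), with 1289.9 and 1123.9 tags in EKO and no called region in WT. Mnat1, a subunit of the CDK-activating kinase, had 1505.9 and 1061.7 tags over 14.3 kb in EKO (chr12:73197782-73212073), and no region in WT. The region over the start of Cyp4f18, a cytochrome P450 that hydroxylates leukotriene B4, had 1186.9 and 905.7 tags in EKO (chr8:72006355-72011869) and none in WT. Cmah, which converts N-acetyl- to N-glycolylneuraminic acid, held 2 of the 12 highest regions in its introns, with 1148.3 and 850.8 tags in the higher. The region inside Ms4a7, a marker of border-associated macrophages, had 1204.4 and 728.9 tags in EKO (chr19:11318710-11331797) and none in WT. Further regions among these 12 lay near Gpr65, a proton-sensing receptor (1021.4 and 720.4 tags in EKO), and Nup205, a nuclear pore subunit (869.7 and 604.6 tags in EKO). The regions named for Bambi, Csl and Npvf lay 253.0, 124.0 and 203.0 kb from those starts, so the names give position only. A count of 0 means that no region was called there, not that no tag fell there.

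Several loci gathered many EKO-only regions. Trps1, a GATA-type repressor, was the nearest gene of 10 of them (25.7 kb, 1558.2 and 1075.1 tags in EKO), Cxcr4, the receptor of CXCL12, of 8 (22.2 kb, 1208.1 and 928.0 tags in EKO), and Ahr, the aryl hydrocarbon receptor, of 6. Over all 21911 protein-coding genes, 8.22% were the nearest gene, within 100 kb, of at least 1 EKO-only region. The share was 7 of 18 among border-associated macrophage genes (Mrc1, F13a1, Cybb, Ms4a7, Clec12a, Dab2 and Clec10a), 7 of 20 among lipid and apolipoprotein genes (among them Abca1, Abcg1, Plin2 and Scd2) and 10 of 26 among macrophage transcription factors (Cebpa, Runx1, Runx3, Fos, Fosl2, Batf3, Tfec, Tfeb, Bhlhe40 and Trps1). Cytokine and innate activation genes had 7 of 22 and TGFβ pathway genes 5 of 20 (Tgfbr2, Smad6, Smad7, Tgif1 and Bambi). Homeostatic microglia genes had 3 of 29 (Csf1r, Mertk and Csmd3), and neuron and astrocyte markers none of 13 and none of 11. Lists with no tie to macrophages also had such genes, with 2 of 10 widely used genes, 2 of 11 vascular and 1 of 13 oligodendrocyte lineage markers. Each of these counts was the same with WT replicate 2 alone (8.45% of all genes). With the 10000 highest regions per library (4.79% of all genes) the count was 9 of 18 among border-associated, 10 of 20 among lipid, 9 of 26 among transcription factor, 3 of 20 among TGFβ pathway and none of 10 among widely used genes. These shares are counts without a test.

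Sall1 had the most WT-only regions. Of the 278 regions, 11 had Sall1 as the nearest gene, and together they covered 99.2 kb with 3839.3 and 21206.7 tags in the WT libraries and none in EKO. The largest was the upstream domain of 33.4 kb (chr8:89382457-89415822, intergenic, 338.0 kb from the start site), with 2094.3 and 10992.5 tags in WT. The region over the gene itself (chr8:89027337-89051459) had 1122.7 and 5725.4 tags in WT. Each EKO library lacked a called region from 346.0 kb downstream to 1750.7 kb upstream of the Sall1 start, whereas from 60 kb downstream to 600 kb upstream WT replicate 1 held 13 and WT replicate 2 held 79. Part of the super-enhancer upstream of Sall1 is deleted in EKO. The study describes a deletion shorter than the upstream domain, so some of that domain's DNA remains in EKO without a called region. The coordinates of the deletion were not used here, so absent DNA and lost acetylation cannot be told apart at single positions of the domain. The promoter region, 338.0 kb away, and 9 further regions of the interval also had no called region in EKO.

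**Figure D2:**
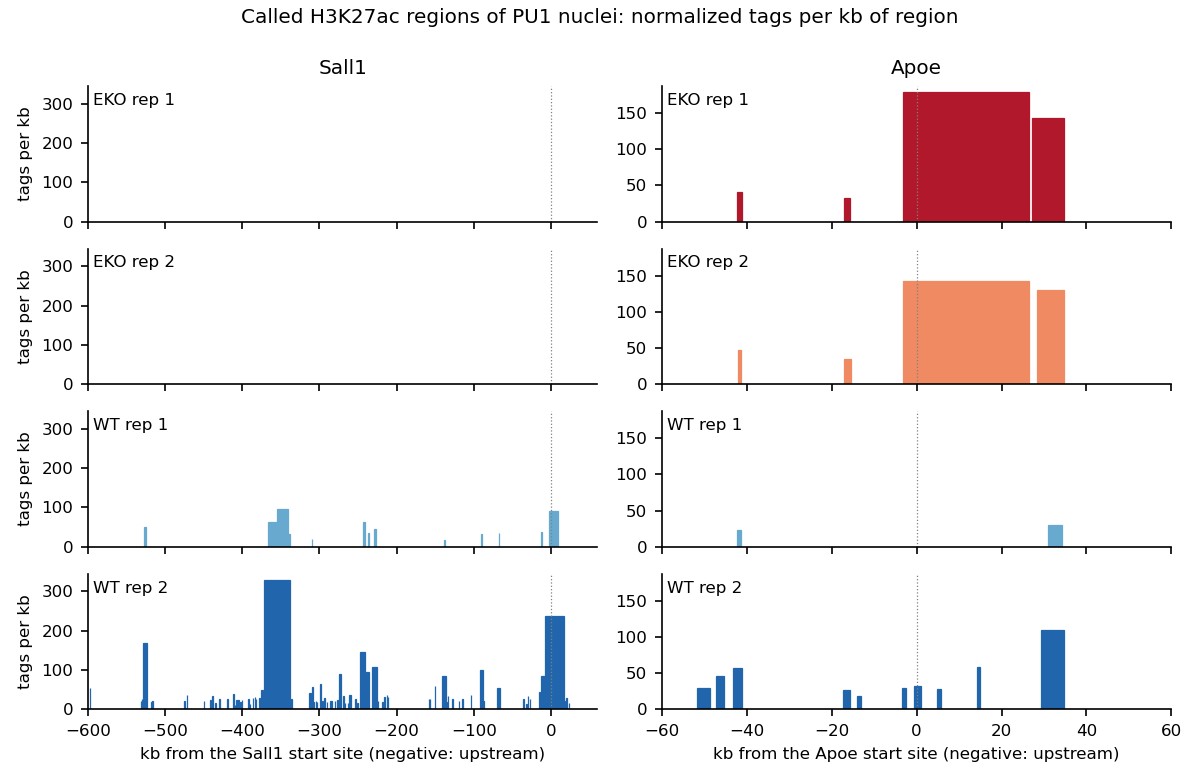
Called H3K27ac regions of PU1 nuclei around Sall1 (left) and Apoe (right), each bar a region with its true width in kb from the start site (x axis) and its normalized tags per kb (y axis), 1 row per library. Both EKO rows are empty at Sall1, where WT replicates hold 13 and 79 regions; both EKO rows carry a wide block over Apoe where WT replicate 1 has no region and WT replicate 2 only narrow ones.

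Other WT-only regions lay near Copz2, a coatomer subunit (chr11:96871937-96887761, 292.8 and 1983.2 tags in WT), in Plcg1, phospholipase C gamma (chr2:160740868-160747017, 190.7 and 914.9 tags), and in Khdrbs3, an RNA-binding protein gene (175.4 and 1064.1 tags). The start of Csmd3, which encodes a complement-control-domain protein, was covered by a WT-only region with 151.0 and 896.6 tags. Jam2, an adhesion molecule gene (139.3 and 820.8 tags), Klhl7, a ubiquitin ligase adaptor (133.8 and 623.3 tags), and Tmc7 (112.9 and 617.5 tags) completed the 12 highest together with further Sall1 regions. Besides Sall1, Khdrbs3, Rtn1, Oaf and Arglu1 were the nearest genes of 3 WT-only regions each. In each of the 12 regions WT replicate 1 had the lower value. Over all protein-coding genes, 0.94% were the nearest gene of a WT-only region within 100 kb. Of 29 homeostatic microglia genes, 2 were among them, Sall1 and Csmd3, and Csmd3 was also the nearest gene of an EKO-only region. The share of all genes was 26.7% with WT replicate 2 alone, where 23 of the 29 were among them. So were 18 of 26 macrophage transcription factors, 14 of 20 TGFβ pathway genes and 1 of 13 neuron markers. Using the 10000 highest regions per library it was 3.21%, and the counts were 8 of 29, 4 of 26, 2 of 20 and 0 of 13.

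Genotype-specific regions were more often distal than shared ones. Of EKO-only regions 23.1% lay within 3 kb of a protein-coding start and of WT-only regions 11.9%, compared with 37.7% of all EKO and 40.4% of all WT regions. Formed with WT replicate 2 alone, the classes gave 24.1% of EKO-only and 9.31% of WT-only regions, against 37.7% of all EKO and 25.4% of all WT regions, and with the 10000 highest regions 19.7% and 22.7%, against 36.1% and 38.8%. EKO-only regions had a median width of 1302 bp and median tags of 36.8 and 28.0 in the EKO libraries, against 3036 bp and 234.0 and 177.0 tags for EKO regions overlapped by both WT libraries. WT-only regions had a median width of 2127 bp and median tags of 15.3 and 120.0 in WT. The order of the widths depended on the classes, since EKO-only and WT-only regions had medians of 1302 and 500 bp with WT replicate 2 alone and of 2966 and 2545 bp with the 10000 highest regions. Regions over 5 kb made up 1.46% of EKO-only, 8.63% of WT-only and 13.1% of all EKO regions. Width and tag number thus differed between the classes, and each comparison of peak or motif content by class carries that difference.

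Regions present in every library allowed levels to be compared. At the 8195 merged regions called in all 4 libraries, tags per kb were set to equal distributions between libraries and fitted with limma, and calls required a fold above 2 with an adjusted p (Benjamini–Hochberg) under 0.05. Of these regions 3.42% were called, 110 higher (1.34%) and 170 lower (2.07%) in EKO. The direction split depended on the scaling, since setting only the medians equal gave 115 higher and 289 lower. Without scaling between libraries no region was called (28 with unadjusted p below 0.05) and the median change of all regions was 0.49 on the log2 scale. Leaving out single libraries gave 106 to 559 called regions, lowest without EKO replicate 2 and highest without WT replicate 1.

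Among regions with more acetylation in EKO, the largest change was in the Ms4a gene cluster near Ms4a12 (chr19:11239984-11247449), with 246.4 and 168.9 tags per kb in EKO and 24.4 and 29.6 in WT. Its log2 change after scaling was 2.32 ± 0.32 (SE, n = 2 each; limma adjusted p = 0.0162). Pdcd1lg2, the gene of the checkpoint ligand PD-L2, had an intronic region with 126.0 and 96.9 tags per kb in EKO and 18.5 and 31.2 in WT (log2 change 1.88 ± 0.21, limma adjusted p = 0.0122). Zc3h12d, an RNase gene of the Regnase family, had 161.7 and 140.0 tags per kb in EKO and 22.0 and 42.3 in WT. Regions at Rtcb, Tbc1d1, in Itsn1 (nearest start Atp5o), in Rnf150 (nearest start Tbc1d9), near Ppm1h, at Synj1 and at Wwp2 made up the 10 highest, with log2 changes of 1.76 to 1.90. All 10 kept their direction against WT replicate 2 alone, at log2 changes of 1.76 to 3.11. They were chosen for scaled values that did not overlap between genotypes, so this direction was nearly fixed by the choice.

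Among regions with less acetylation in EKO, St3gal5, whose enzyme makes the ganglioside GM3, had 46.6 and 26.5 tags per kb in EKO and 56.5 and 196.6 in WT at an intronic region (log2 change -1.94 ± 0.23, limma adjusted p = 0.0122). Abcc1, an export pump, had 44.5 and 38.1 tags per kb in EKO and 61.5 and 198.0 in WT. Adgrl2, a latrophilin, had 22.4 and 21.4 in EKO and 44.8 and 104.4 in WT, and Actn1, an actin crosslinker, 20.2 and 24.9 in EKO and 37.4 and 119.4 in WT. The WT libraries differed by more than 2-fold here because WT replicate 1 was low throughout, with a median of 31.9 tags per kb over all of these regions against 91.5 in WT replicate 2 and 84.2 and 70.2 in EKO. The remaining regions of the 10 lowest lay near Fam102b, over Grk3 (nearest start Myo18b), near C1qtnf7, near Esyt3 and at Gm3739 and Gm3629, which belong to a family of near-identical copies and are uncertain. These 10 kept their direction against WT replicate 2 alone, which their choice by values without overlap made nearly certain. Cd9, Sema4g and St3gal5 each held 2 called regions, all lower in EKO. Regions called lower lay within 3 kb of a start in 12.4% of cases and regions called higher in 25.5%, against 43.3% of all regions tested.

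Tags around genes gave the same comparison by gene. For each protein-coding gene, the tags of all called regions that reached within 10 kb of its start were summed, and 10403 genes with a region in at least 2 libraries were tested as above. Of these, 2.11% were called, 135 higher (1.3%) and 84 lower (0.807%) in EKO. Of the 135 genes called higher, 103 had no region in WT replicate 1, and of the 84 called lower, 26 had none in either EKO library, so fold changes are printed only for genes with a region in all 4 libraries. Scaling put genes without a region at 3.927 in WT replicate 1 and at 0.0 in WT replicate 2 (log2 scale). Genes without a region in both WT libraries thus got unequal WT values, and none of the 135 was such a gene. The calls were fragile. Without scaling between libraries no gene was called (685 with unadjusted p below 0.05, median change of all genes 1.53), with medians set equal the split was 41 higher and 94 lower, and without EKO replicate 1 or EKO replicate 2 no gene was called (1316 and 1162 with unadjusted p below 0.05). With WT replicate 2 alone 287 genes were called (2.76%), 234 higher (2.25%) and 53 lower (0.509%), and without WT replicate 2, 1921. A gene could enter the test through the genotype in which it was high, so counts for gene lists are also given over the 4986 genes with a region in all 4 libraries, fitted on their own. Of those 5.64% were called, 147 higher (2.95%) and 134 lower (2.69%).

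Of 26 homeostatic microglia genes tested, 5 were called lower in EKO and none higher, and 12 had an unadjusted p below 0.05. Of 24 with a region in all 4 libraries 4 were called lower and none higher, at a median log2 change of -0.24 relative to all such genes (-0.31 with values as deposited or with medians set equal). Against WT replicate 2 alone the log2 changes of Selplg, Slc2a5, Sema4g and Csmd3 were -1.42, -1.43, -2.35 and -5.74. Sall1 had no tags in EKO and 1122.7 and 6128.7 in WT. Selplg, the P-selectin ligand, had 2361.9 and 1673.5 tags in EKO and 1239.1 and 7328.6 in WT (log2 change -1.55 ± 0.12, limma adjusted p = 0.0259). Slc2a5, the fructose transporter of microglia, had 546.1 and 352.3 in EKO and 235.4 and 1416.6 in WT (log2 change -1.55 ± 0.17, limma adjusted p = 0.0414), and Sema4g 241.7 and 137.8 in EKO and 204.9 and 1111.6 in WT. In Selplg, Slc2a5 and Sema4g the genotypes overlapped in the deposited values and were separate only after scaling. Csmd3 fell to 28.5 and 13.4 tags in EKO, against 151.0 and 1266.6 in WT. Tmem119 (log2 change -0.22 ± 0.06), P2ry12 (-0.54 ± 0.17), Olfml3 (0.15 ± 0.10) and Sall3 (-0.21 ± 0.18) did not pass the test (limma adjusted p of 0.191, 0.24, 0.512 and 0.582), which does not show that they were alike in the genotypes.

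Of 16 apolipoprotein and lipid genes tested, 5 were called higher in EKO and none lower. Apoe, Apoc2 and Apoc4 among them share a single acetylated domain. Of 8 with a region in all 4 libraries, Abca1, Apoc2 and the scavenger receptor gene Msr1 were called higher and Lpcat3, a phospholipid remodelling enzyme, lower, at a median log2 change of 0.79 relative to all such genes (0.83 with values as deposited or with medians set equal). Of 15 single regions of these genes called in all 4 libraries 1 was called higher, at a median of 0.33 on the log2 scale against 0.01 over all regions. Abca1 and Apoc2 had log2 changes of 1.64 and 3.53 against WT replicate 2 alone. Apoe, the main lipid carrier of the brain, had 5304.7 and 4262.6 tags in EKO and 0.0 and 110.0 in WT. In EKO the domain was continuous over Apoe and its neighbours (chr7:19672698-19702515), and Apoc4 shared its tags (6356.5 and 4262.6 in EKO, 0.0 and 39.2 in WT). Apoc2, a cofactor of lipoprotein lipase, had 6356.5 and 5086.6 tags in EKO and 96.6 and 638.3 in WT (log2 change 3.50 ± 0.09, limma adjusted p = 0.00518). The Apoc2 sums include a separate region beside the domain (chr7:19664410-19669925 in WT replicate 2). That region gave all 96.6 tags of WT replicate 1 and 599.1 of those of WT replicate 2, and 1051.8 and 824.0 in EKO. The change thus sets domain and neighbour in EKO against mostly the neighbour in WT. The Apoc4 sum of EKO replicate 1 also includes it. Plin2, the coat protein of lipid droplets, had 315.3 and 208.5 in EKO and 0.0 and 45.0 in WT, and Abca1, a cholesterol exporter, 1393.7 and 1103.1 in EKO and 62.5 and 469.1 in WT (log2 change 1.69 ± 0.16, limma adjusted p = 0.032).

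Of 17 border-associated macrophage genes tested, 6 were called higher in EKO (Ms4a7, Mrc1, F13a1, Pf4, Ms4a6b and Stab1) and none lower. Only 6 had a region in all 4 libraries, of which Ms4a6b and Stab1 were called higher and none lower. None of their 11 single regions called in all 4 libraries was called, at a median of 0.40 on the log2 scale against 0.01 over all regions. Ms4a6b and Stab1 had log2 changes of 2.01 and 1.16 against WT replicate 2 alone. Mrc1, the mannose receptor, had 1218.2 and 923.9 tags in EKO and 0.0 and 77.5 in WT. Ms4a7 had 2085.1 and 749.7 in EKO and 0.0 and 16.7 in WT, F13a1, a coagulation factor subunit, 570.9 and 472.9 in EKO and 0.0 and 47.4 in WT, and Pf4, a chemokine, 432.1 and 366.9 in EKO and 0.0 and 25.0 in WT. These genes are markers of another brain macrophage. Of the 18, 16 and 15 had a region in the EKO libraries and 6 and 14 in WT, Cd209f had none in any library, and their summed tags were 0.721% and 0.699% of all gene tags in EKO and 0.0674% and 0.48% in WT. In sorted nuclei a larger share of such cells and more acetylation per cell cannot be told apart.

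Regulators and immune genes were called in small numbers, to be read beside 2.11% of all genes tested. Among all genes with a region in all 4 libraries 5.64% were called. Of 24 macrophage transcription factors tested, Bhlhe40, a basic helix-loop-helix repressor (465.2 and 393.7 tags in EKO, 0.0 and 11.7 in WT), and Trps1 (377.9 and 291.3 in EKO, 0.0 and 35.8 in WT) were called higher and none lower. None of 16 with a region in all 4 libraries was called. Tfec, a MiT-family factor of macrophages, had 580.1 and 392.5 tags in EKO and no region in WT. Tfec entered the test through the EKO libraries alone and did not pass it (limma adjusted p = 0.12). Scaling set its WT values, with no region in either library, to 3.927 and 0.0 on the log2 scale. That gap comes from the scaling, so the failure does not show a lack of change. C3ar1, the receptor of complement C3a, was called higher with 1948.1 and 1394.5 tags in EKO and 148.5 and 915.0 in WT (log2 change 1.06 ± 0.12, limma adjusted p = 0.0448). It was the only one called of 21 cytokine and innate genes tested. Of 16 with a region in all 4 libraries, fitted on their own, C3ar1, Nfkbia and Tlr2 were called higher and Il6 lower. Ciita, the master regulator of MHC class II, was called among 12 antigen presentation genes (850.4 and 683.9 in EKO, 0.0 and 97.5 in WT). None of 7 such genes with a region in all 4 libraries was called. Igf1, a growth factor of activated microglia (413.7 and 307.2 in EKO, 0.0 and 13.3 in WT), and Apoe were called higher and Cd9 lower among 21 disease-associated genes. Of 12 with a region in all 4 libraries Cd9 was called lower and none higher. C3ar1 and Cd9 had log2 changes of 1.11 and -3.09 against WT replicate 2 alone. No gene was called among 16 TGFβ pathway, 15 interferon response, 18 lysosome and 10 widely used genes by limma, with 5 of the 16, 4 of the 15, 6 of the 18 and 1 of the 10 at an unadjusted p below 0.05. In the fit of genes with a region in all 4 libraries, Bst2 was called higher among 3 interferon response genes. There none of 14 TGFβ pathway, 14 lysosome and 6 widely used genes was called.

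**Figure D3:**
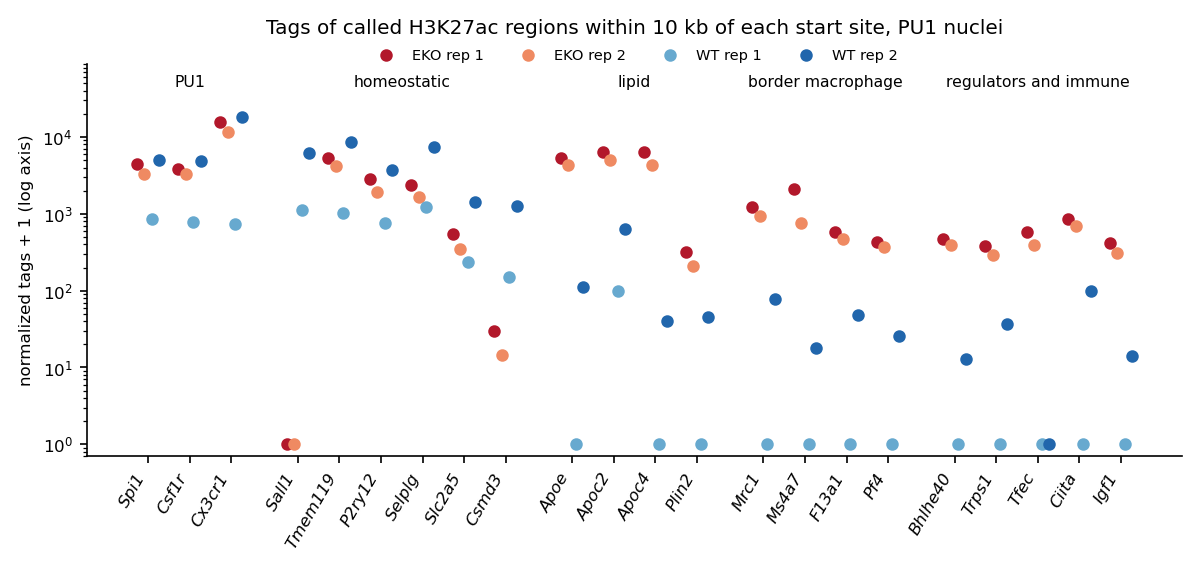
Normalized tags plus 1, on a log axis, of called regions reaching within 10 kb of the start of selected genes, with 1 point per library (EKO in red and orange, WT in light and dark blue). Points at 1 are libraries with no called region; Sall1 sits there in both EKO libraries, while Apoe, Mrc1, Ms4a7 and Bhlhe40 sit there in WT replicate 1 and low in WT replicate 2.

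Libraries that had no part in forming the classes gave an independent reading. In microglia isolated as whole cells (2 EKO and 2 WT libraries), 55285 fixed windows with a mean above 16 tags were tested by the same limma fit, and 8.68% were called higher and 7.56% lower in EKO. Of 2414 windows inside EKO-only regions of PU1 nuclei, 1059 (43.9%) were called higher and 12 lower, with a median log2 change of 1.05. Of 350 windows inside WT-only regions, none was called higher and 303 (86.6%) lower, with a median of -2.55. Windows of shared regions had a median of -0.09. With WT replicate 2 alone forming the classes, 1060 of 2544 EKO-only windows were called higher, while 879 of 2465 WT-only windows were called lower and 27 higher at a median of -0.80. Classes from the 10000 highest regions gave 1689 of 2987 and 890 of 1804. Without microglia EKO replicate 1 or WT replicate 1 no window was called, although the medians stayed at 1.01 and 0.94 for EKO-only and -2.66 and -2.43 for WT-only windows.

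**Figure D4:**
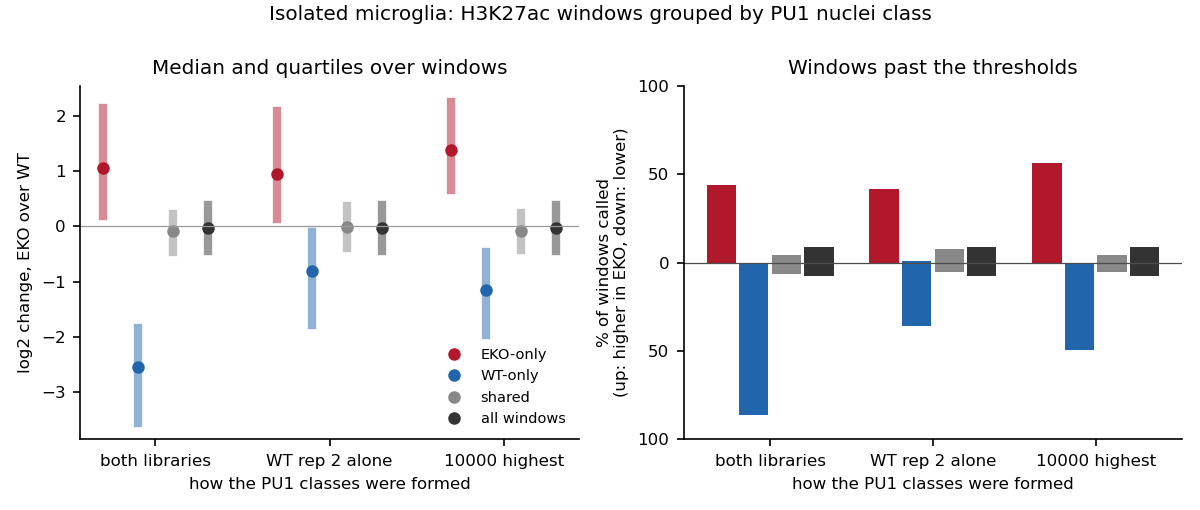
H3K27ac of isolated microglia in windows grouped by PU1 class, for 3 ways of forming the classes; left, median (points) and quartiles (bars) of the log2 change of EKO over WT; right, percent of windows called higher (up) or lower (down) in EKO. EKO-only windows lie above 0 (medians 1.05, 0.94 and 1.38) and WT-only windows below (-2.55, -0.80 and -1.15), with shared and all windows near 0.

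The same held at single loci. At the Mnat1 region all 8 tested windows were called higher, the strongest with 1007.7 and 301.0 tags in EKO and 27.9 and 11.9 in WT (log2 change 4.50 ± 0.24, n = 2 each; limma adjusted p = 1.1e-10). At Cyp4f18 all 3 were, and the strongest had 420.0 and 140.0 tags in EKO and 11.5 and 4.98 in WT. In the Sall1 upstream domain, part of which is deleted, all 9 were called lower, and the strongest had 1.0 and 0.0 tags in EKO and 525.0 and 298.0 in WT. The window 1.62 kb from the start of the domain kept 15.06 and 2.24 tags in EKO, against 48.44 and 25.88 in WT. The window at 22.0 kb had 0.0 tags in both EKO libraries, against 108.38 and 79.62 in WT. Which windows the deletion covers was not tested. At Copz2 all 8 and at Plcg1 all 7 were called lower. Over the Apoe domain 15 of 17 windows were called higher, with a median of 2.97 and a range of -0.69 to 4.84. Windows within 10 kb of border-associated macrophage genes were called higher in 18 of 38 and lower in none, those of lipid genes higher in 38 of 82 and lower in 1, and those of homeostatic genes higher in 2 of 226 and lower in 36. Near oligodendrocyte lineage and astrocyte markers 4 of 14 and 4 of 8 windows were called lower and none higher. Over all protein-coding genes 1690 of 29121 such windows were called higher (5.8%) and 1363 lower (4.68%). Not every gene called in PU1 nuclei was seen there, since Slc2a5 had none of 4 windows called lower (median 0.34) and C3ar1 had 2 of 8 called higher at a median of -0.26.

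At regions called in all 4 PU1 libraries the microglia windows moved with the PU1 call. Regions called higher held 434 tested windows, of which 246 were called higher and 2 lower (median 1.22), and regions called lower held 474, of which none was called higher and 360 lower (median -1.61). Wwp2 was an exception among the 10 highest, with none of 4 windows called and a median of -0.13. Genes called higher had 322 of 526 windows within 10 kb of their starts called higher and 2 lower, and genes called lower 183 of 294 called lower and none higher.

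Peaks of SALL1, p300 and SMAD4 were counted in each class. Each list gives peaks that the authors kept as reproducible between replicates, so no spread is available. SALL1 peaks of WT microglia lay in 12.1% of EKO-only, 36.7% of WT-only and 54.5% of shared regions, or 7.73, 15.9 and 20.6 peaks per 100 kb of region. p300 peaks of WT lay in 6.55% of EKO-only, 22.7% of WT-only and 46.8% of shared regions. SMAD4 peaks of WT lay in 1.35%, 16.5% and 29.2% of the same classes. By share of regions, the order of the genotype-specific classes rested on WT replicate 1. Per 100 kb without that library, EKO-only and WT-only regions held 7.8 and 8.2 SALL1 peaks and 0.947 and 1.54 WT SMAD4 peaks. For p300 they held 4.4 and 4.17, the only one of these lists to change order by that measure. Without that library SALL1 peaks lay in 12.2% of EKO-only, 5.71% of WT-only and 42.2% of shared regions, p300 peaks in 6.98%, 2.93% and 32.8%, and WT SMAD4 peaks in 42 of 2794, 156 of 14415 and 3044 of 16877. With the 10000 highest regions per library the shares were 39.8%, 41.4% and 64.7% for SALL1, 14.5%, 32.9% and 56.2% for p300, and 4.74%, 21.0% and 36.0% for WT SMAD4. Shared regions held the largest share of these lists in each of the 3 ways. A further SMAD4 list comes from libraries whose genotype label is a conditional SMAD4 deletion, while their file name and input titles carry the enhancer knockout. The study describes SMAD4 ChIP–seq in WT and EKO microglia and none in Smad4 knockout cells, so the list most likely comes from EKO. Because the labels differ, the list is called mutant-labelled here. Its peaks lay in 2.96% of EKO-only regions (81 of 2734), none of 278 WT-only regions and 17.3% of shared regions. These shares were 3.04%, 0.0832% and 11.3% with WT replicate 2 alone and 9.29%, 3.51% and 22.0% with the 10000 highest regions. The Mnat1, Nup205, Npvf and Bambi regions and the lower of the Cmah regions each held at least 1 such peak and no SMAD4 peak of WT.

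Both SMAD4 lists were also counted in the regions whose level changed. Regions called higher in EKO held a mutant-labelled SMAD4 peak in 24.5% of cases (27 of 110) and a WT SMAD4 peak in 15.5%, whereas regions called lower held them in 10.6% (18 of 170) and 37.6%. Of all regions called in all 4 libraries 18.2% held a mutant-labelled and 30.5% a WT SMAD4 peak. SALL1 peaks of WT lay in 70.0% of regions called higher and 62.9% of regions called lower, against 56.4% of all. p300 peaks lay in 36.4% and 54.7%, against 48.7%. With WT replicate 2 alone, 258 regions were called higher and 301 lower, and mutant-labelled SMAD4 peaks lay in 19.8% and 8.97% of them, WT SMAD4 peaks in 18.6% and 30.6%, SALL1 peaks in 63.2% and 52.2% and p300 peaks in 33.7% and 45.5%.

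**Figure D5:**
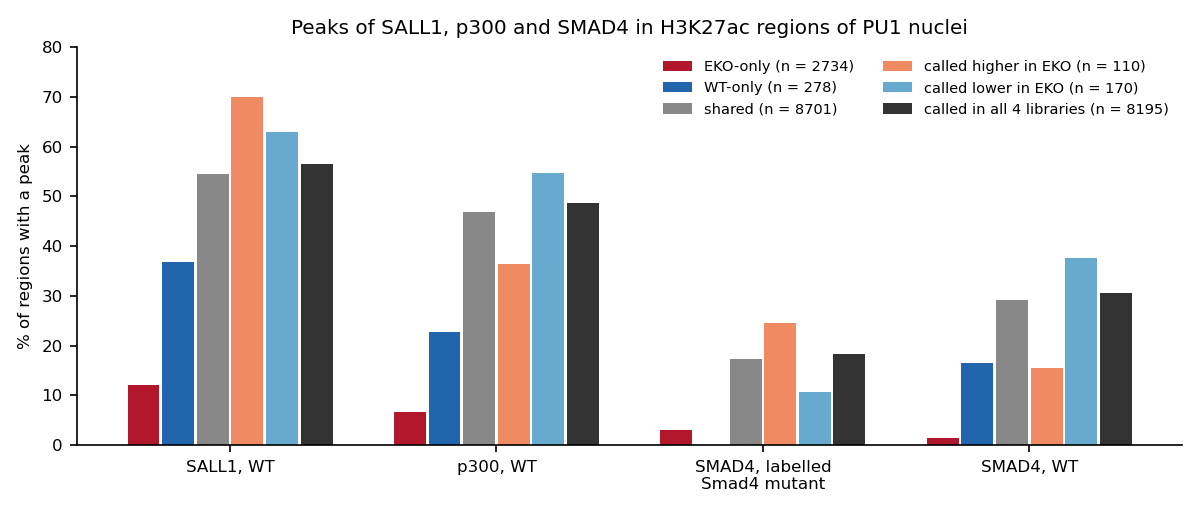
Percent of H3K27ac regions of PU1 nuclei (y axis) that hold at least 1 peak of each factor list (x axis), for 3 overlap classes and for regions called higher, called lower or present in all 4 libraries. WT SMAD4 peaks lie in 15.5% of regions called higher and 37.6% of regions called lower, mutant-labelled SMAD4 peaks in 24.5% and 10.6%.

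Nuclei of other brain cells shared less of the genotype-specific classes than of the common ones. Regions called in both NeuN libraries of the same genotype overlapped 24.7% of EKO-only, 20.1% of WT-only and 50.5% of shared regions, and regions of both Olig2 libraries 21.7%, 15.5% and 46.8%. No library of either sort overlapped 60.7% of EKO-only and 57.6% of WT-only regions. Classes formed with WT replicate 2 alone gave 25.7% of EKO-only and 10.8% of WT-only regions for NeuN, 22.7% and 10.0% for Olig2, and 59.8% and 72.8% for no library of either. With the 10000 highest regions they were 24.1% and 33.8% for NeuN, 19.8% and 28.6% for Olig2, and 58.5% and 45.4% for no library of either.

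Short sequence matches differed modestly between the classes. In 200 bases at the centre of microglia windows over 3 kb from a start, AP-1 TGANTCA occurred in 11.7% of EKO-only windows (343 of 2929), 4.37% of WT-only windows (22 of 504) and 9.36% of windows in any PU1 region. C/EBP TTGCNNAA occurred in 15.0%, 6.75% and 11.4%, and the SMAD box CAGAC in 42.2%, 52.6% and 45.9%. The PU.1 core GAGGAA occurred in 43.0%, 43.7% and 42.5%. When WT replicate 2 alone formed the classes, AP-1 occurred in 11.7% of EKO-only and 8.16% of WT-only windows, C/EBP in 15.0% and 8.68% and the SMAD box in 42.3% and 46.1%, and with the 10000 highest regions in 9.69% and 6.41%, 16.3% and 7.49%, and 42.9% and 50.9%. Over all 132879 windows of the table AP-1 was found in 7.64%, C/EBP in 9.36%, the SMAD box in 41.6% and the PU.1 core in 36.4%. Median GC content was 46.0% in EKO-only, 51.0% in WT-only and 49.0% in all PU1 windows, and matches are letters in a window, not bound sites.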

How the data were processed

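The study measured H3K27ac by ChIP–seq in sorted nuclei and isolated microglia, and only PU1 nuclei form the classes. Reads were mapped to mm10 with Bowtie2 and handled in HOMER per the labels. For each nuclei library the authors deposited a list of regions with its signal (tags scaled to a library of 10000000 tags), its fold ratio over input, an unadjusted p-value and a score, and for microglia a table of normalized signal in windows of 1000 bp. Folds in the lists start at 4.0. Per the study's methods, ChIP–seq peaks were called by HOMER in each library with relaxed thresholds, without saying whether the H3K27ac regions were made so. The factor lists hold peaks that the authors kept as reproducible (IDR), with a score each and no replicate values, and the p300 list joins a whole-cell replicate with PU1 nuclei.

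Regions were joined by an overlap of 1 bp, annotated with protein-coding genes (21911), and fitted on log2(value + 1) after quantile normalization with limma 3.58.1 in R 4.3.3, so fold changes of low values are understated. Genes were summed over whole regions reaching within 10 kb of the start. Microglia windows needed a mean of 16 tags. edgeR 4.0.16 and DESeq2 1.42.0 were run as alternatives on tags recovered from the microglia table (100.0% whole within 0.1). The smallest p an exact permutation test over these 4 libraries allows is 0.33. Fits were tested on simulated data with a reduced spread that was the same in all 4 libraries. None of the simulated libraries was poorly enriched, so that test does not cover the state of WT replicate 1. The text names the 12 regions per class with the highest tags in the lower of their libraries, the 10 called regions without overlap of largest change each way, up to 4 genes per list (called ones before the rest, then by change without overlap), the markers and the genes the study shows. Other called list genes and genes with several regions were named after their values were seen. The members and gene lists were chosen with earlier results of these data known. Alternatives were other scalings, pseudocounts, filters, overlaps and windows, a replicate block and leaving out each library.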

Additional observations from a re-analysis of the deposited data

How the results depend on the processing

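The order of the classes depended on WT replicate 1. EKO-only minus WT-only regions was 2456 and became -11621 without that library, 642 with the 10000 highest regions per library (1582 EKO-only and 940 WT-only) and 1565 at a fold over input of at least 8, where 4853 regions were shared. Leaving out each library in turn gave 2794 to 11166 EKO-only, 373 to 14415 WT-only and 8505 to 16877 shared regions, and a difference of -11621 to 10335. Called density regions (280) numbered 0 with values as deposited, 1270 with summed tags, 123 above the median density, 110 at a fold of at least 8 and 106 to 559 with each library left out. Called genes (219) numbered 0 as deposited (685 with unadjusted p below 0.05), 135 with median scaling, 722 with windows of 25 kb, 412 with tags prorated to the window (chosen after seeing the data) and 0 to 1921 with each library left out. Microglia windows called higher at EKO-only regions (1059) and lower at WT-only regions (303) numbered 196 and 49 as deposited, 0 to 377 and 0 to 233 with each library left out, 1689 and 890 with classes from the 10000 highest regions, and 879 of the second kind with WT replicate 2 alone. SALL1 peaks lay in 12.1% of EKO-only regions, in 3.37% with the upper part of the list by score and in 39.8% with the 10000 highest regions. The cause of these shifts was not tested.

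Same-numbered libraries did not deviate together (correlations of -0.004, -0.053 and 0.036). With 2 libraries per genotype these correlations cannot exclude a pairing or a shared batch. With a replicate block 334 density regions, 5 genes, and 1081 and 308 microglia windows were called. Of 20 named density regions no change of sign occurred under any alternative, and 21 of their values lost the call. These regions were chosen for genotypes without overlap, so leaving out a library could hardly change their sign. Of 31 genes with a region in all 4 libraries 7 were called, none of which changed sign, while 38 of their values lost the call. Among the uncalled genes 14 values of 8 changed sign (Crybb1, Csf1r, Lgals3, Olfml3, Sall3, Ski, Spi1 and Tmem119).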
